A study of Mus musculus with 2 samples.

Results

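The nuclear-encoded genes of oxidative phosphorylation were followed across the marker-gated cell types of 2 single-cell libraries. Members were the genes whose symbols begin with Nduf, Uqcr, Atp5 or Sdh followed by a to d, or with Cox4i, Cox5, Cox6, Cox7 or Cox8. Of 32285 genes, 98 symbols matched. The pseudogene Ndufb1-ps and the genes Cox7b2 and Cox8c, which had no UMI, were left out, which gave 95 members. They comprised 36 genes of complex I, 4 of complex II, 8 of complex III, 18 of complex IV, 17 of complex V and 12 assembly factors. Ndufa4 and Ndufa4l2 were counted with complex IV. The 13 mitochondrially encoded mt- genes of the same complexes, 7 of complex I, 1 of complex III, 3 of complex IV and 2 of complex V, were not members and were read beside them.

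The libraries were made from ankle joint synovium of B6 mice, bone marrow chimeras in which CD45.2 hosts carried CD45.1 donor bone marrow and the ankle had been shielded from the irradiation. Untreated chimeras gave the steady-state library, and the other was made 7 days after a retro-orbital injection of 200 µL of Clo-lip, liposomes of clodronate that kill the phagocytes ingesting them. In both, live CD45+CD11b+ cells negative for Ly6G, SiglecF, CD64, MHCII, Ly6C and CD177 had been sorted and profiled with the 3′ CITE-seq assay, which counts transcripts and antibody tags per cell as unique molecular identifiers (UMIs). The number of animals behind each library and their ages are not given in the sources used here, and each group is 1 library. No comparison between the libraries therefore has a replicate check, and every 95% interval below covers counting error only.

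Oxidative phosphorylation passes electrons from NADH through complex I, or from succinate through complex II, to complex III and on to complex IV, which reduces oxygen. The protons pumped on the way drive complex V, the ATP synthase. Complexes I, III, IV and V are built from nuclear and mitochondrial gene products together, whereas complex II is entirely nuclear-encoded. In myeloid cells the balance between this pathway and glycolysis is known to differ with activation state and cell type, and mature neutrophils are known for few mitochondria.

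After filters on UMIs, genes, mt- share and doublets, 1630 steady-state and 1200 day 7 cells remained, with medians of 9558.5 and 8309 UMIs per cell and totals of 17060676 and 10824984 UMIs. The libraries shared 0 cell barcodes. Cells were grouped by marker gates on RNA rather than by the sort. The macrophage gate (C1qa, C1qb, C1qc) held 885 steady-state and 148 day 7 cells, the classical monocyte gate (Ly6c2 with Ccr2, Chil3, F13a1 and others) 137 and 390, and the Ly6C-low monocyte gate (Ace, Treml4, Eno3 and others) 123 and 120. Cells that passed both monocyte gates, 84 and 194, were kept as a class of their own. At day 7 a granule protease gate (Mpo, Elane, Prtn3, Ctsg) held 77 cells and a late granule gate (S100a8, S100a9 with Camp, Ngp, Ltf, Lcn2 or Retnlg) held 73, against 1 and 2 at steady state. Smaller gates marked class II cells (62 and 4), fibroblasts (63 and 12) and cells with osteoclast markers (7 and 0), while 241 and 156 cells passed no gate. Genes that no gate used went with the names: Vsig4, a macrophage receptor, stood at 1335 and 939 CPM (a gene's UMIs scaled to 1000000 UMIs) in the macrophage gates and at 4.60 and 0.278 CPM in the classical gates, and Ms4a3, a granulocyte and monocyte progenitor gene, at 725 CPM in the granule protease gate. Transcripts of Ly6c2 and of class II genes defined gates here although the sort selected against both proteins.

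Summed over all members, nuclear OXPHOS (oxidative phosphorylation) transcripts took 2.34% of UMIs at steady state (398833 UMIs) and 2.43% at day 7 (263572 UMIs). Among the marker gates above, the cells with osteoclast markers were highest at 51053 CPM and the day 7 late granule gate lowest at 14357 CPM. At steady state the classical monocyte gate held 23835 CPM (95% interval 23571 to 24101), the macrophage gate 23798 (23701 to 23896), the both-gate monocytes 22175 (21889 to 22463), the class II gate 22024 (21711 to 22340), the Ly6C-low gate 20099 (19810 to 20390) and the fibroblast gate 17600 (17276 to 17930). On the CPM scale the macrophage and classical gates did not differ beyond counting error, nor did the both-gate and class II cells, and each later gate in that order was lower than the one before it. Among day 7 gates of at least 20 cells the order was classical monocyte 26593 CPM (26425 to 26762), both-gate 25921 (25709 to 26134), granule protease 24225 (23969 to 24483), Ly6C-low 24198 (23859 to 24540), macrophage 21967 (21689 to 22247) and late granule 14357 (14082 to 14637). The granule protease and Ly6C-low gates did not differ beyond counting error. Single cells spread more widely than these sums: the middle 90% of steady-state macrophages ran from 10864 to 31261 CPM.

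Complexes I, IV and V made up most of each sum. In steady-state macrophages they held 7045, 7220 and 6252 CPM, complex III 2461 CPM and complex II 497 CPM. The mt- share of the same cells followed another order. It was lowest in the late granule gate and, among gates of at least 20 cells, highest in the Ly6C-low gate of day 7: the mt- genes held 8805 and 28429 CPM there. In nuclear member UMIs per mt- UMI, the fibroblast gate was the lowest of the steady-state gates of at least 20 cells (0.670) and the classical monocyte gate the highest (1.57).

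**Figure D1:**
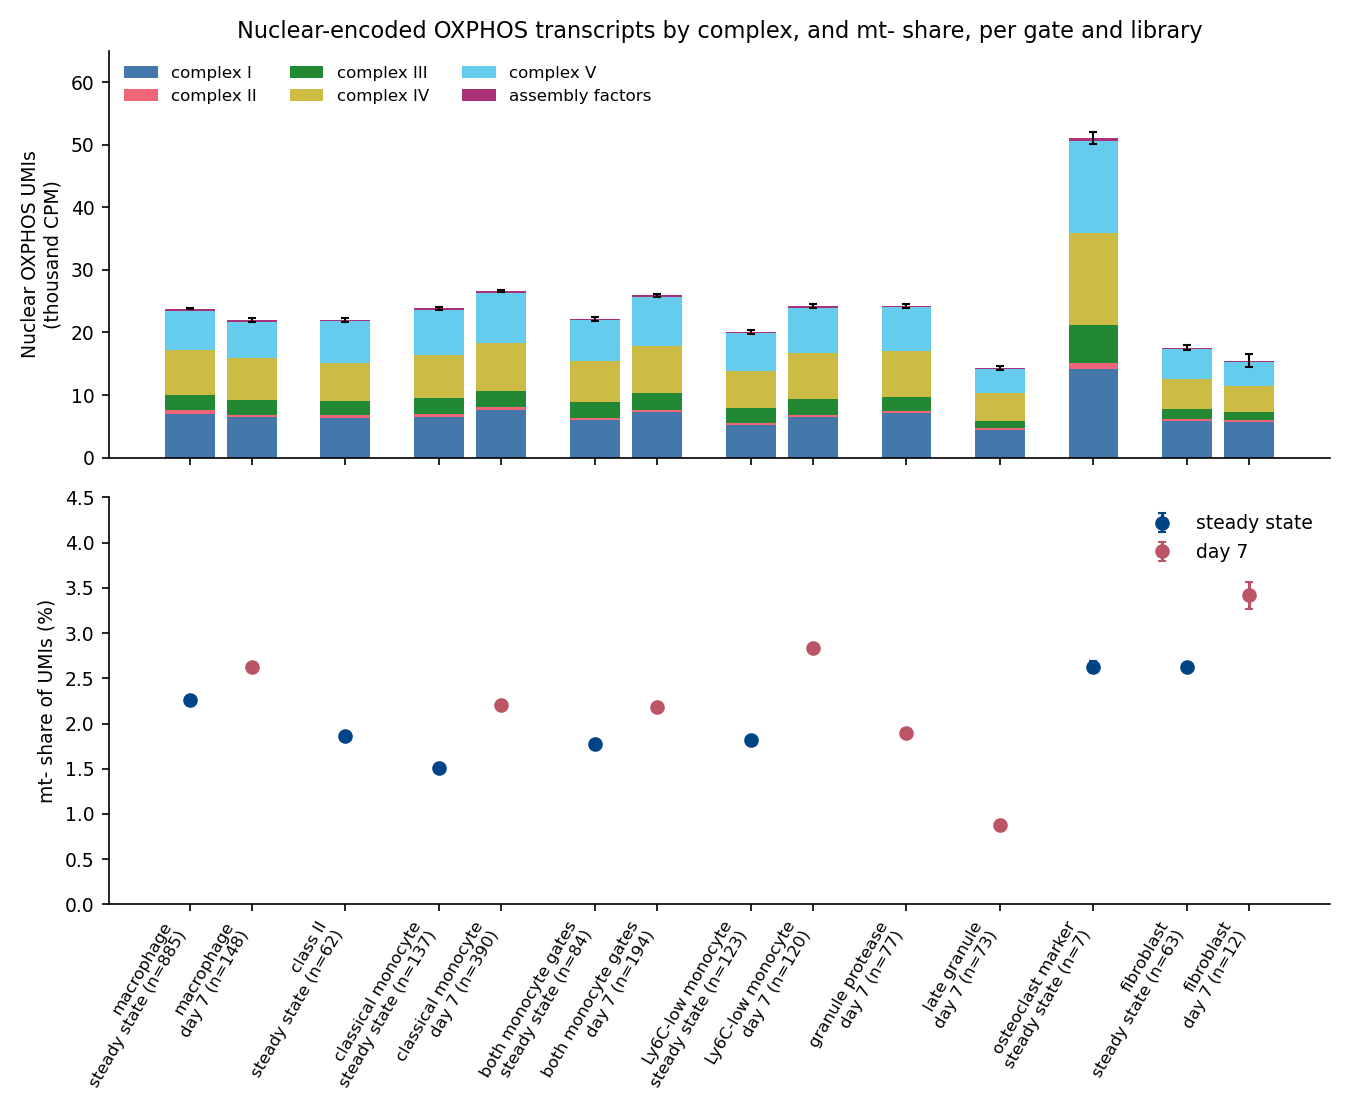
Upper panel: summed CPM of the 95 members per marker gate and library, stacked by complex, with a 95% exact Poisson interval for the sum. Lower panel: share of UMIs from the 13 mt- genes in the same cells with its 95% exact interval; n is the number of cells. The osteoclast-marker cells stand highest (51053 CPM) and the late granule gate lowest (14357 CPM) in the upper panel.

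Several members differed between macrophages and classical monocytes in the same direction in each library, although the sums were alike at steady state (log2 ratio of 0.00, and -0.28 at day 7). TMM scaling gave -0.19 and -0.56 for these sums. A member was called different when its CPM ratio was at least 1.5-fold and it reached 20 CPM in either group. At steady state 15 of 84 members past that minimum were higher in the macrophage gate and 6 lower, where 35.0% and 18.5% of all genes were. At day 7, 6 of 85 were higher and 18 lower, where 33.3% and 20% of all genes were. The shares of members called higher were thus below those of all genes in both libraries. The median log2 ratio was 0.13 and -0.19 over members and 0.24 and 0.19 over all genes. Across the 84 members past the minimum in both libraries, the steady-state and day 7 log2 ratios had a Pearson coefficient of 0.92, against 0.93 across 6098 genes of all kinds. The libraries share no cells.

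Accessory subunits of complex I stood on both sides. Ndufa3 stood at 118 CPM in macrophages and 257 CPM in classical monocytes at steady state, and at 120 and 355 CPM at day 7, log2 ratios of -1.12 (-1.30 to -0.94) and -1.56 (-1.83 to -1.30). Ndufs4, which sits near the NADH-oxidizing end of the complex, stood at 47.1 and 112 CPM and at 43.2 and 116 CPM, log2 ratios of -1.25 and -1.43. In both libraries the macrophage level of these genes was below that of the monocyte classes and the day 7 granule gates. Across these gates Ndufa3 ranged from 196 to 355 CPM and Ndufs4 from 89.0 to 116 CPM. Low levels were not particular to macrophages: Ndufa3 and Ndufs4 stood at 125 and 52.4 CPM in the steady-state class II gate. In the steady-state fibroblast gate they stood at 94.6 and 78.8 CPM. Ndufa5 went the other way between macrophages and classical monocytes. It stood at 172 against 67.5 CPM at steady state and 170 against 97.8 CPM at day 7 (log2 ratios of 1.35 and 0.80). Ndufa12, another accessory subunit, stood at 169 against 88.2 CPM and at 137 against 85.0 CPM (0.94 and 0.69). Complex I subunits were thus unequal between these types.

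Of the assembly factors among the members, 4 of 7 past the minimum were called higher in macrophages and 0 lower at steady state, and 3 of 8 higher and 1 lower at day 7, beside the shares of all genes given above. A list of other assembly factors had 2 of 13 called higher and 1 lower at steady state, and 0 of 10 higher and 2 lower at day 7. Ndufaf2 stood at 31.6 against 10.7 CPM at steady state and 38.6 against 13.1 CPM at day 7 (log2 ratio of 1.56 in each library), and Ndufaf4 at 29.5 against 15.3 and 30.3 against 11.4 CPM (0.94 and 1.41). These assembly factors act late and early in complex I assembly, and rest here on 14 to 47 UMIs in the classical gates. Sdhaf4, a factor for the flavoprotein of complex II, and Sdhc, a membrane anchor of that complex, were also called higher in both libraries. The interval of Sdhaf4 at day 7 reached from -0.01 to 1.38.

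On the lower side in both libraries stood Atp5c1, the gamma subunit of the ATP synthase rotor, at 289 against 531 CPM and 195 against 392 CPM (log2 ratios of -0.88 and -1.01). Atp5f1, the peripheral stalk b subunit, stood at 267 against 447 CPM and 193 against 415 CPM (-0.75 and -1.10). Uqcrfs1, the Rieske iron-sulfur protein of complex III, stood at 166 against 294 CPM and 140 against 216 CPM (-0.83 and -0.63), and Uqcrh, the hinge protein of that complex, at 501 against 767 CPM and 450 against 735 CPM (-0.61 and -0.71). Together 6 members were called higher in macrophages in both libraries (Ndufa5, Ndufa12, Ndufaf2, Ndufaf4, Sdhaf4, Sdhc) and 6 lower (Ndufa3, Ndufs4, Atp5c1, Atp5f1, Uqcrfs1, Uqcrh). Every member called in either library kept its direction under the 4 other scalings. All 12 mt- genes past the minimum were above the classical gate in macrophages at steady state and 11 of 12 at day 7, where mt-Co1, mt-Co2 and mt-Nd4 changed sign under another scaling. Most of the cytosolic ribosomal protein genes, 56 of 82 past the minimum, were at least 1.5-fold lower in steady-state macrophages than in classical monocytes.

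**Figure D2:**
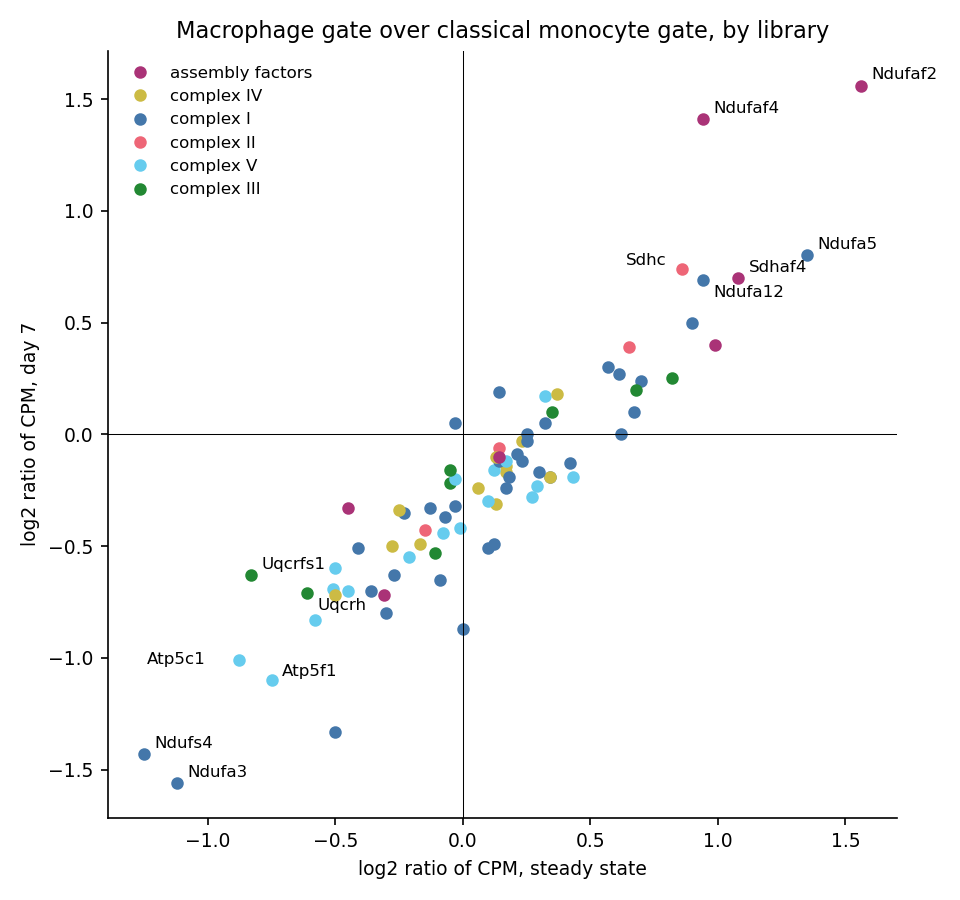
Each point is a member with at least 20 CPM in either gate of both libraries: log2 ratio of the macrophage over the classical monocyte gate at steady state (horizontal) and at day 7 (vertical), coloured by complex. The 12 named members were at least 1.5-fold apart in the same direction in both libraries, with Ndufa3 and Ndufs4 at the lower left and Ndufaf2 at the upper right.

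Promoter windows are printed for 5 members that differed between the types in the same direction in both libraries, 2 lower and 3 higher in macrophages, of which 4 hold a searched motif and Ndufaf2, with the highest ratio, holds none. These 5 were chosen after their values and matches were seen. RefSeq promoter windows (GRCm38.p6; 300 bases, from 250 before to 50 after the gene start) matched 78 of the 95 members, and 17 had no entry, among them Atp5f1 and Sdhc of the members named above. Motifs of 4 factors known for respiratory genes were searched on both strands: the NRF1 motif, CCGGAAG for ETS factors such as GABP, AAGATGGC for YY1 and TCAAGGTCA for the ERR receptors. NRF1 letters were in 22 of 83 member windows (26.5%) and in 4.60% of all 32851 windows, ETS letters in 22 of 83 (26.5%) and in 8.86%. YY1 letters were in 10 of 83 (12.0%) and in 2.75%, and ERR letters in 2 of 83 (2.41%) and in 0.423%. No matches of different motifs overlapped in the member windows. In the windows below, capitals mark matches to these motifs. Ndufa3 (chr7:3617123-3617422, plus strand) and Ndufs4 (chr13:114388045-114388344, minus strand), lower in macrophages, each hold the YY1 letters:
Ndufa3: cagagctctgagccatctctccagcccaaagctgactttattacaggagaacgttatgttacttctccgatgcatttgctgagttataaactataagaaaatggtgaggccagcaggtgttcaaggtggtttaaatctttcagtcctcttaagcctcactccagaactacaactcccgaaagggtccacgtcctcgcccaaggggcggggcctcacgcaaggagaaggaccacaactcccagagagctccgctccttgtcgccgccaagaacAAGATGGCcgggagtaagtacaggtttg
Ndufs4: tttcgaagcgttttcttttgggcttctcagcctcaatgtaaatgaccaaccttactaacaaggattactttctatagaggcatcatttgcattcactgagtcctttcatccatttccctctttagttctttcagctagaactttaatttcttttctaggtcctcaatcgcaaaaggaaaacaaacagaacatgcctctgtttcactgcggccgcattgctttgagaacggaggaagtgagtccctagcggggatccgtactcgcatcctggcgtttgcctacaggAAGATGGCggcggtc
Ndufa5 (chr6:24527477-24527776, minus strand) and Ndufaf4 (chr4:24897833-24898132, plus strand), higher in macrophages, each hold the NRF1 letters, and Ndufaf2 (chr13:108158576-108158875, minus strand), also higher, holds no match:
Ndufa5: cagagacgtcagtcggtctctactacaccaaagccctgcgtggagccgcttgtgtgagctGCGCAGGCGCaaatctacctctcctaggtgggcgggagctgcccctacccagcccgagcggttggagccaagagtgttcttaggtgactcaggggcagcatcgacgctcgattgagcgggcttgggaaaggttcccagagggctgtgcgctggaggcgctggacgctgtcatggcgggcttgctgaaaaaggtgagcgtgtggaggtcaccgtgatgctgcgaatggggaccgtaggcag
Ndufaf4: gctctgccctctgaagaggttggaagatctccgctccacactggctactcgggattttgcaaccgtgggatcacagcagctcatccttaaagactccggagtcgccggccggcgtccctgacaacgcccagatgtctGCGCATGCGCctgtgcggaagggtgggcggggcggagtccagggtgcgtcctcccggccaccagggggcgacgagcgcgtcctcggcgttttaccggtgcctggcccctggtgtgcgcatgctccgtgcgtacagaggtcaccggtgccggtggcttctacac
Ndufaf2: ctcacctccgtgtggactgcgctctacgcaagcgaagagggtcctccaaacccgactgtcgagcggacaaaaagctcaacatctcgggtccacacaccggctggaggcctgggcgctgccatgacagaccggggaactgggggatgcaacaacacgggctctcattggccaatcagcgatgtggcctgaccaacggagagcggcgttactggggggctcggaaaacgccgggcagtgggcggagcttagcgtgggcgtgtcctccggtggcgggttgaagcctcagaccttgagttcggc
Among members lower in macrophages in both libraries, 2 of the 5 with an entry held YY1 letters. On that side 1 held NRF1 letters (Atp5c1) and 1 ETS letters (Uqcrh). The first of 2 Atp5c1 windows held no match and is not printed. Among members higher in macrophages, 3 of 5 held NRF1 letters and 0 held ETS, YY1 or ERR letters. For numbers this small these counts are a description of the windows. A match is a run of letters and was not tied to binding.

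The Ly6C-low gate was lower than the classical gate in summed members in both libraries, 20099 against 23835 CPM at steady state and 24198 against 26593 CPM at day 7 (log2 ratios of -0.25 and -0.14). At steady state 14 of 82 members (17.1%) were called lower and 1 higher, where 16.8% and 19.7% of all genes were. The share called lower was thus near that of all genes. At day 7, 5 of 81 were called lower and 1 higher, where 16.8% and 13.1% of all genes were. The complex I subunits Ndufs3, Ndufv1 and Ndufa9 were called lower in both libraries. Sdhaf1, a factor for iron-sulfur insertion into complex II, was called higher in both: 48.8 against 19.9 CPM and 57.1 against 25.0 CPM (1.29 and 1.19). Cox5a stood above the classical gate in both libraries (480 against 389 CPM and 556 against 414 CPM) while Cox5b stood below it (442 against 613 CPM and 487 against 666 CPM). The 12 mt- genes past the minimum were all above the classical gate in each library, with medians of 0.35 and 0.53.

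Cells that passed both monocyte gates were close to the classical gate. At steady state 0 of 81 members were called higher and 1 lower (Ndufv1, 55.1 against 91.3 CPM), where 9.44% and 6.61% of all genes were, and at day 7, 1 was higher (Sdhaf1, 40.6 against 25.0 CPM) and 0 lower, where 3.69% and 1.77% were. The class II gate had 4 of 84 members called higher and 4 lower, where 20.6% and 19.0% of all genes were. The fibroblast gate had 5 of 85 members called higher and 25 lower, where 35.0% and 33.3% of all genes were. Its low members included Ndufs8 (48.9 against 164 CPM) and Sdhd (33.1 against 109 CPM), and Ndufa5 was high there too (221 against 67.5 CPM). All 12 mt- genes past the minimum were above the classical gate in fibroblasts, with a median of 1.03.

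Over all cells, nuclear OXPHOS transcripts were nearly level between the libraries, 23377 CPM at steady state and 24348 CPM at day 7 (log2 ratio of 0.06, 0.05 to 0.07), while the cell makeup was not. Of 85 members past the minimum, 3 were called higher at day 7 and 6 lower, where 15.0% and 20.2% of all genes were. The higher ones were Ndufa3 (144 to 298 CPM, log2 ratio of 1.05), Cox6b2 (10.1 to 20 CPM, 0.99) and Ndufs4 (62.4 to 97.6 CPM, 0.65). The lower ones were Sdhaf4, Ndufaf4, Ndufa12, Ndufaf2, Ndufs3 and Ndufv1, with log2 ratios from -0.88 to -0.62. Of these 9, Ndufa3, Ndufs4, Ndufa12, Ndufaf2, Ndufaf4 and Sdhaf4 were also called between macrophages and classical monocytes in both libraries: those lower in macrophages were higher at day 7 and those higher in macrophages were lower. The macrophage gate held 885 of 1630 cells at steady state and 148 of 1200 at day 7. Cell shares were also made equal between the libraries over the macrophage gate, the monocyte classes and the cells with no gate. Each of these had at least 20 cells in both libraries. All other cells, among them the granule, class II, fibroblast and osteoclast-marker gates, were left out. With these shares equal, 0 members were called, and the log2 ratio became 0.46 for Ndufa3, 0.04 for Ndufs4 and -0.22 for Ndufa12.

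Within gates the libraries diverged by type. In the macrophage gate the summed members were lower at day 7, 21967 against 23798 CPM (log2 ratio of -0.12, -0.13 to -0.10), and in the 3 monocyte classes they were higher. The classical gate stood at 26593 against 23835 CPM (0.16, 0.14 to 0.18), the both-gate class at 25921 against 22175 CPM (0.23, 0.20 to 0.25) and the Ly6C-low gate at 24198 against 20099 CPM (0.27, 0.24 to 0.30). These 4 directions held under the 10 alternatives run for each. The sizes did not: under TMM scaling, which centres the ratios on other genes, they became -0.28, 0.04, 0.11 and 0.22. Over the 10 alternatives the macrophage ratio ran from -0.28 to -0.04 and the classical ratio from 0.04 to 0.17. Median depth in macrophages was 10121 UMIs at steady state and 7127 at day 7. In the classical, both-gate and Ly6C-low classes it was 9138, 9908.5 and 6707 UMIs against 9085, 9809.5 and 6779.5. The part of depth in these ratios was not tested. The median log2 ratio of all genes past the minimum was 0.13, 0.14, 0.11 and 0.08 in these gates, and that of members -0.14, 0.20, 0.29 and 0.21. Relative to all genes, members were thus lower in macrophages by more than the sums show, and higher in monocytes by less.

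The mt- transcripts of the same cells were higher at day 7 in all 4 gates. They stood at 26215 against 22640 CPM in macrophages (log2 ratio of 0.21), 21980 against 15147 CPM in classical monocytes (0.54), 21813 against 17713 CPM in the both-gate class (0.30) and 28429 against 18232 CPM in the Ly6C-low gate (0.64). The summed nuclear and mt- transcripts therefore went in opposite directions in macrophages and in the same direction in the monocyte classes. Complex III departed from this: its nuclear and mt- log2 ratios were both -0.09 in macrophages, and 0.02 and -0.07 in the both-gate class. With TMM scaling the mt- ratios became 0.04, 0.42, 0.19 and 0.60. Within the mt- set, complex V genes (mt-Atp6, mt-Atp8) differed more than mt-Cytb of complex III: in macrophages complex V stood at 4048 against 3038 CPM (0.41) and mt-Cytb at 2287 against 2433 CPM (-0.09). In classical monocytes the same values were 0.69 for complex V and 0.18 for mt-Cytb. In macrophages mt-Co3 and mt-Nd4 changed sign under another scaling, and in the both-gate class mt-Nd2 and mt-Cytb did. The mt- filter limits these values, and the macrophage ratio was 0.13 with a limit of 5% and 0.13 with no limit.

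Few single members passed 1.5-fold within macrophages. Of 85 past the minimum, 0 were called higher and 5 (5.88%) lower at day 7, where 11.9% and 5.60% of all genes were. The share called lower was thus near that of all genes. The lower ones were Ndufs8, Ndufs3 and Ndufa10, subunits of complex I, Atp5d, a subunit of the ATP synthase rotor, and Sdhaf4. Ndufs8 stood at 116 CPM at steady state and 56.9 CPM at day 7 (log2 ratio of -1.03, -1.42 to -0.66, from 62 UMIs at day 7), and Ndufs3 at 139 and 80.8 CPM (-0.79). In a list of 12 subunits taken from all complexes, among them Cox4i1, Cox5a and Cox5b, 10 were below 0 and 2 above. The list does not hold Ndufs8 or Ndufs3. Cox5a stood at 491 against 362 CPM, Sdhb at 227 against 169 CPM and Ndufv1 at 100 against 74.4 CPM, whereas Sdha stood at 92.6 against 114 CPM and Atp5a1 at 318 against 320 CPM. Above 0 stood Ndufa6 (265 to 330 CPM), Cox6a1 (322 to 378 CPM) and Atp5l (708 to 811 CPM).

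In the monocyte classes some of the same members were higher. In classical monocytes 4 of 81 were called higher and 0 lower, where 17.7% and 6.71% of all genes were: Ndufs6, Uqcr11, Atp5k and Ndufc1. These are small subunits of complexes I, III and V. In the both-gate class 8 of 81 were called higher and 0 lower, where 16.0% and 8.08% were, and in the Ly6C-low gate 9 of 82 and 0, where 14.8% and 10.3% were. Shares of members called higher were below those of all genes in each class, and so were the shares called lower. Ndufs6, a zinc-binding accessory subunit of complex I, was called in all 3: 97.4 to 157 CPM, 101 to 161 CPM and 78.1 to 142 CPM (log2 ratios of 0.69, 0.67 and 0.86). Ndufc1 was called in all 3 as well, at 144 to 216 CPM, 107 to 214 CPM and 115 to 192 CPM. Cox6a1, the ubiquitous isoform of a regulatory subunit of complex IV, stood at 287 to 426 CPM, 246 to 420 CPM and 281 to 443 CPM (0.57, 0.77 and 0.66), and its macrophage ratio was 0.23. Sdha, the flavoprotein of complex II, was called in the both-gate and Ly6C-low classes (55.1 to 83.0 CPM and 54.3 to 103 CPM).

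Other members stood lower at day 7 in monocytes while remaining within 1.5-fold. Atp5c1 stood at 531 against 392 CPM in classical monocytes and Atp5d at 472 against 348 CPM (log2 ratio of -0.44 for each). Uqcrfs1 stood at 294 against 216 CPM and Ndufv1 at 91.3 against 65.3 CPM. In the Ly6C-low gate the intervals of Atp5c1 and Uqcrfs1 reached 0.00 and 0.05. Subunits of the same ATP synthase thus lay on both sides of 0. In the classical, both-gate and Ly6C-low classes Atp5k, Atp5md, Atp5mpl and Atp5e were above, and Atp5c1 and Atp5d below. The log2 ratios of Atp5e were 0.30, 0.36 and 0.53.

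**Figure D3:**
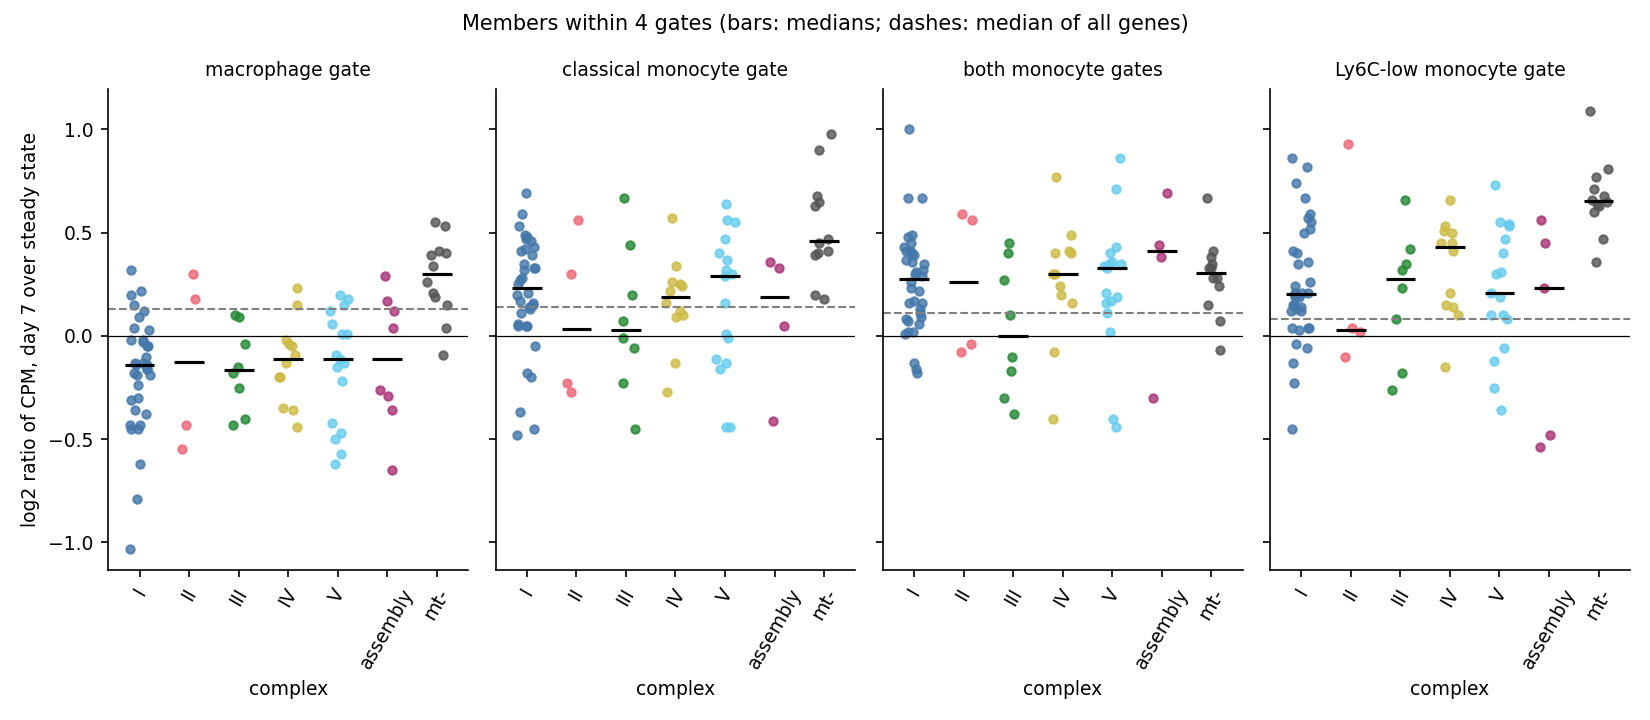
Log2 ratio of CPM, day 7 over steady state, for each member with at least 20 CPM in either library and for the mt- genes, in 4 gates (panels) by complex. Bars are medians of a complex and dashes the median over all genes in that gate. In macrophages the medians of all 6 member groups lie below 0 and that of the mt- genes above it; in classical monocytes the mt- genes reach the highest ratios.

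The windows of Ndufs6 (chr13:73328433-73328732, minus strand) and Cox6a1 (chr5:115348909-115349208, minus strand), both above steady state in all 3 monocyte classes at day 7, are shown for the motif letters in them, NRF1 and YY1 in the first and NRF1 and ETS in the second, in capitals:
Ndufs6: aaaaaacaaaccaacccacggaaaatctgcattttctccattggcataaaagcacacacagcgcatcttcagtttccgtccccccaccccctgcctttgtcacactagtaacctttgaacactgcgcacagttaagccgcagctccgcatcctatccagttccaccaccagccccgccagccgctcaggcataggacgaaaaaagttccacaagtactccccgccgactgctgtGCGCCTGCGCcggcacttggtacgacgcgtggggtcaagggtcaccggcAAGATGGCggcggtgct
Cox6a1: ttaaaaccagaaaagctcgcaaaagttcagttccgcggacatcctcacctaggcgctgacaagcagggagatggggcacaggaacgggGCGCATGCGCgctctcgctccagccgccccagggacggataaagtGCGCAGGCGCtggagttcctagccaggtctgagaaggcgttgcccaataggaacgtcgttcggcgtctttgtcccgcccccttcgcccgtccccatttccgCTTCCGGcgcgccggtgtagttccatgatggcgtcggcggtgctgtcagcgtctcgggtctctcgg

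Related gene lists give the surroundings of these ratios. Over all genes in macrophages 11.9% were called higher and 5.60% lower, with a median of 0.13, and the median in classical monocytes was 0.14. In macrophages the median log2 ratio, day 7 over steady state, was -0.07 over 16 TCA cycle genes (0 higher and 2 lower), -0.43 over 14 glycolysis genes (0 higher and 5 lower), -0.28 over 70 mitochondrial ribosome genes (1 higher and 13 lower) and 0.30 over 10 biogenesis regulators (3 higher and 0 lower). In classical monocytes these medians were -0.07 over 15 genes, -0.27 over 17, 0.08 over 67 and 0.52 over 6. The cytosolic ribosome stood at -0.07 in macrophages and 0.00 in classical monocytes. For comparison, the median of the nuclear members was -0.14 in macrophages and 0.20 in classical monocytes.

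The granule gates of day 7, whose markers are genes of the neutrophil lineage, differed from each other. From the granule protease gate (an early stage with primary granule genes) to the late granule gate, summed members stood at 24225 and 14357 CPM (log2 ratio of -0.75, -0.79 to -0.72). Of 84 members past the minimum 62 were called lower and 1 higher, where 35.7% and 12.4% of all genes were, and the median was -0.81 over members against -0.30 over all genes. All 8 members of complex III and 26 of 36 of complex I were called lower. So were 11 of 13 of complex IV and 14 of 17 of complex V, but 0 of 4 of complex II. The complex II sum stood at 257 and 198 CPM, and its 4 genes were all below 0 (-0.49 to -0.25). Against classical monocytes, all 4 were called lower in the late granule gate and 1 in the granule protease gate, where 55.3% and 38.8% of all genes were. Named low members were Atp5g1, a gene of the proton-conducting c ring (323 to 103 CPM, -1.65), Ndufb2 (206 to 73.7 CPM, -1.48), Uqcr11 (299 to 122 CPM, -1.29), Atp5a1, the catalytic-head alpha subunit (284 to 120 CPM, -1.25), Uqcrb (483 to 213 CPM, -1.18) and Ndufa4 (770 to 364 CPM, -1.08). The exception was Ndufaf7, an assembly factor with 21 and 18 UMIs, whose interval reached from -0.24 to 1.73.

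The mt- transcripts were lower still in the late granule gate: 18853 and 8805 CPM (-1.10, -1.14 to -1.06), with 12 of 12 genes called lower. Other lists were lower in the late granule gate too, with medians of -1.45 over the cytosolic ribosome (82 of 82 lower), -1.06 over the mitochondrial ribosome (53 of 62 lower), -0.80 over the TCA cycle and -0.32 over glycolysis (2 of 15 lower). With TMM scaling the member ratio was -0.47. Median depth was 19100 UMIs in the granule protease gate and 9247 in the late granule gate, and the part of depth in this difference was not tested. Against classical monocytes of the same library, the late granule gate had 66 of 82 members called lower and 0 higher, where 55.3% and 14.4% of all genes were. The summed ratio there was -0.89, and TMM scaling gave -0.34.

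The granule protease gate itself was close to classical monocytes in sum (24225 and 26593 CPM, log2 ratio of -0.13), and TMM scaling turned this to 0.09. Single members differed, with 4 of 85 called higher (4.71%) and 10 lower (11.8%). These shares were below those of all genes, 17.4% and 38.8%. Ndufv3, an accessory subunit next to the NADH-binding site, stood at 411 against 186 CPM (1.14), and Cox6b2, known as a testis isoform, at 58.0 against 17.5 CPM (1.73). Cox7a2l, a supercomplex factor, stood at 129 against 303 CPM (-1.23), Sdhb at 76.4 against 176 CPM (-1.20) and Cox4i1 at 840 against 1351 CPM (-0.68).

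**Figure D4:**
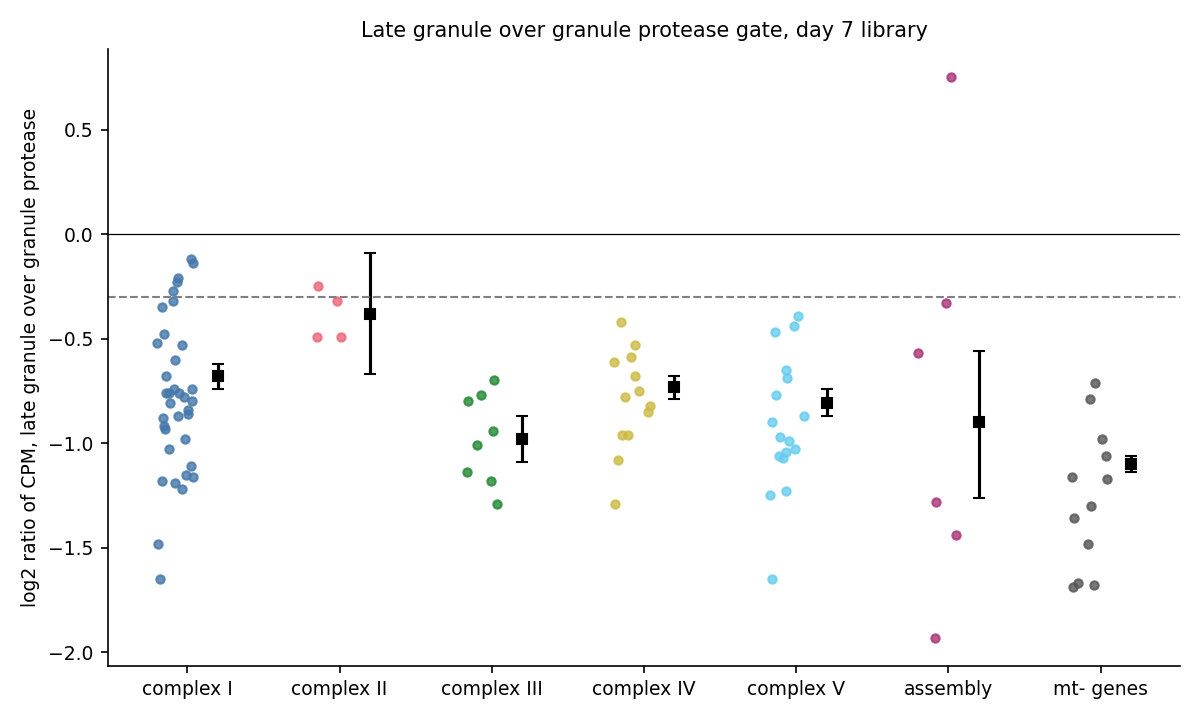
Log2 ratio of CPM in the day 7 library, late granule gate (73 cells) over granule protease gate (77 cells), for each member with at least 20 CPM in either gate and for the mt- genes, by complex. Squares are the ratios of the summed UMIs with 95% intervals and dashes the median over all genes (-0.30). Complex II lies nearest to 0 (-0.38) and the mt- genes farthest (-1.10).

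Cycling cells, those with a UMI of at least 2 of Mki67, Top2a, Birc5, Ccnb1, Cdk1 and Pclaf, carried more member UMIs within the granule gates. The 110 cycling cells held 21819 CPM and the 40 others 11676 CPM (log2 ratio of 0.90, 0.84 to 0.96), with 68 of 83 members called higher and 1 lower, where 45.8% and 22.6% of all genes were. Of those called, 6 changed sign under another scaling, among them Ndufs8, Ndufv1 and Ndufa5. Stage and cycling cannot be told apart in this ratio, since the late granule gate gave 41 of the 110 cycling cells and 32 of the 40 others. Within the late granule gate alone, 41 cycling cells held 15585 CPM and 32 others 10798 CPM (0.53, 0.46 to 0.60), with 47 of 82 members called higher and 3 lower, where 38.9% and 26.0% of all genes were (6 of those called changed sign under another scaling), and with mt- transcripts at 10094 and 5071 CPM. The cycling cells were also deeper, with medians of 15301 and 6416 UMIs, and weighting cells equally gave 0.51 over both granule gates. In classical monocytes of day 7, 60 cycling cells held 29670 CPM and 330 others 25769 CPM (0.20), with 10 of 84 members called higher and 0 lower, where 20.9% and 14.2% of all genes were, while their mt- transcripts were lower, 20332 against 22421 CPM (-0.14).

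The 7 steady-state cells with osteoclast markers (at least 3 of Ctsk, Acp5, Mmp9, Atp6v0d2 and Calcr, where Calcr had 0 UMIs) held 51053 CPM of members against 23798 CPM in macrophages, 2.15-fold more. Ordered by level, the cells stood at 35933, 39193, 41488, 42008, 42622, 62915 and 92331 CPM. Only 8 of 885 steady-state macrophages reached the lowest of them. Of 86 members 77 were called higher and 1 lower, where 22.8% and 46.3% of all genes were, and all 5 complexes were higher: complex III 2.46-fold, V 2.35-fold, IV 2.04-fold, I 2.00-fold and II 1.99-fold. The c-ring genes Atp5g1, Atp5g2 and Atp5g3 stood at 1041, 1391 and 850 CPM against 324, 454 and 262 CPM, and Atp5b, the catalytic beta subunit, at 1073 against 374 CPM. The mt- sum was 26252 against 22640 CPM, 1.16-fold, and its genes went both ways. Of 12 mt- genes 1 was called higher, mt-Cytb (4500 against 2433 CPM, 0.89), and 3 lower, mt-Nd2 (-1.07), mt-Nd5 (-0.78) and mt-Atp8 (-0.67, -2.31 to 0.56). Ribosomal genes stood higher in these cells too, 79 of 82 cytosolic (median log2 ratio of 1.32) and 62 of 77 mitochondrial (1.02). The cells had a median of 30370 UMIs, and 7 cells from 1 library show no spread between animals.

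In steady-state macrophages, cells were host-class with CD45.2 antibody counts at least 4 times CD45.1, and donor-class with CD45.2 counts no higher than CD45.1. Host-class cells numbered 700 and donor-class cells 117, with median depths of 10494 and 9021 UMIs. They held 24083 and 22141 CPM of members (log2 ratio of 0.12, 0.10 to 0.14). The difference was uneven over complexes, 7371 against 6287 CPM for complex IV (0.23) and 6267 against 6243 CPM for complex V (0.01). Of 86 members 3 were called higher in host-class cells and 0 lower, where 11.9% and 6.70% of all genes were. Those called were Ndufb2 at 138 against 83.4 CPM (0.72), Cox7a1 at 21.0 against 13.3 CPM (0.65, with an interval that includes 0) and Sdha at 97.3 against 63.4 CPM (0.62). Within 1.5-fold, Cox8a stood at 937 against 706 CPM (0.41) and Atp5e at 581 against 714 CPM (-0.30). Host-class and donor-class cells came from 1 library, so the spread between animals is not known.

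Isoforms known from muscle, lung or testis were sparse, and some followed cell type. Cox7a1, the heart and muscle isoform of a complex IV subunit, had 191 UMIs in the 885 steady-state macrophages (19.9 CPM, UMIs in 149 cells) and 0 UMIs in the 344 cells of the 3 monocyte classes. Against a floor of 3 counts over those classes, macrophages were at least 21.6-fold higher. At day 7 it had 19 UMIs in macrophages (17.5 CPM) and 16 UMIs in 704 monocytes (2.42 CPM), 7.22-fold (3.52 to 15.0). Cox4i2, an isoform known from lung, had 52 UMIs in steady-state macrophages and 0 in the monocyte classes, at least 5.89-fold, with 8 of them in a single cell. At day 7 it had 1 UMI in macrophages and 3 in the monocyte classes, a ratio of 2.03 (0.0386 to 25.3) that does not separate them. At steady state these counts were not confined to macrophages. Cox4i2 stood at 6.30 CPM in the fibroblast gate (4 UMIs) and 5.42 CPM in macrophages. Cox7a1 stood at 6.99 CPM in the class II gate (6 UMIs) and 3.15 CPM in the fibroblast gate (2 UMIs). The ubiquitous partners Cox7a2 and Cox4i1 stood at 433 and 1374 CPM in steady-state macrophages. Ndufa4l2, a hypoxia-associated relative of Ndufa4, had 63 UMIs in 15 of 63 steady-state fibroblast-gate cells (14 of them in 1 cell) and 0 UMIs in the 137 classical monocytes, which allows up to 2.30 CPM there. Cox6b2 stood at 58.0 CPM in the granule protease gate, with UMIs in 36 of 77 cells (46.8%). After thinning each cell to 2000 UMIs, with 15 shallower cells left out, 16.1% of 62 cells had UMIs. In steady-state macrophages it stood at 4.38 CPM, with UMIs in 33 of 885 cells (3.73%, and 0.834% of 839 after thinning). Other gates of at least 20 cells lay between, from 5.43 CPM in steady-state Ly6C-low monocytes to 26.8 CPM in steady-state class II cells. Over both granule gates of day 7, 99 Cox6b2 UMIs lay in the 110 cycling cells and 0 in the 40 others, which were shallower. Within the late granule gate alone these counts were 17 and 0. In day 7 classical monocytes Cox6b2 stood at 30.2 CPM in cycling cells and 14.1 CPM in the others. The part of depth was not tested.

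Skeletal muscle transcripts went with part of these isoform counts. Cox8b, another muscle isoform, had 10 and 7 UMIs in the libraries, 9 and 6 of them in 1 barcode each. The barcode with 119746 CPM of members, the highest of all, held 243 UMIs of Acta1, Mylpf, Tnnc2 and Ckm among 2046 and a mt- share of 0.440%. It passed no gate. At day 7, 18 of 31 Cox6a2 UMIs came from 1 classical-gate barcode with 157 muscle UMIs. The day 7 over steady state log2 ratio of Cox6a2 was thus -0.62 with the muscle-marked barcodes and -1.70 without them. In macrophages over the monocyte classes Cox6a2 was 6.91-fold (2.25 to 34.4) at steady state, on 61 and 3 UMIs. At day 7 it was 3.04-fold (1.27 to 6.81), on 10 and 20 UMIs, with that barcode counted. No macrophage-gate cell had 3 muscle UMIs, and 1 of 227 steady-state Cox7a1 UMIs lay in such a barcode. At day 7, 6 of 41 did, all in the classical-gate barcode, and without it, an alternative chosen after seeing the data, Cox7a1 was 11.5-fold (5.10 to 27.8) higher in macrophages than in the monocyte classes, on 19 and 10 UMIs, against 7.22-fold (3.52 to 15.0) with it.

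Nuclear and mt- shares were weakly related across cells. Within gates of at least 50 cells, the Pearson coefficient between the nuclear share of UMIs outside mt- genes and the mt- share was negative in 12 of 14 sets, from -0.45 in steady-state Ly6C-low monocytes to -0.16, and positive in both-gate monocytes (0.31) and the late granule gate (0.35) of day 7. With a limit of 5% mt- UMIs it was negative in 8 of 14. The steady-state Ly6C-low set had a Spearman coefficient of -0.09, and a Pearson coefficient of -0.08 with that limit. The Spearman coefficient was positive in 3 sets with a negative Pearson coefficient, the steady-state class II (0.22) and fibroblast (0.01) gates and the granule protease gate (0.02). In steady-state macrophages the Pearson coefficient was -0.37 over 885 cells and -0.09 over the 817 with at most 5% mt- UMIs. Cells of 1 library share a depth range, and the nuclear share of steady-state macrophages also went with depth (Spearman coefficient of 0.33).

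Barcodes with a high mt- share had low nuclear levels. At steady state the nuclear level per 1000000 UMIs outside mt- genes was 23406 at 1 to 2% mt-, 24797 at 2 to 3% and 25259 at 3 to 5%, then 16655 at 5 to 10%, 13168 at 10 to 20% and 9214 above 20%. At day 7 it was 24562, 26467 and 25425, then 19878, 6322 and 3266. Median depth was 10069, 10429 and 8360 UMIs in the first 3 of these steady-state bands and 3051, 1385.5 and 988.5 in the last 3. The part of depth and RNA quality in this was not tested. Most barcodes past the 10% limit carried no gate at steady state, 162 against 54 in the macrophage gate. Below 1% mt-, day 7 barcodes had 17371 and a median depth of 1320.5 UMIs.

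**Figure D5:**
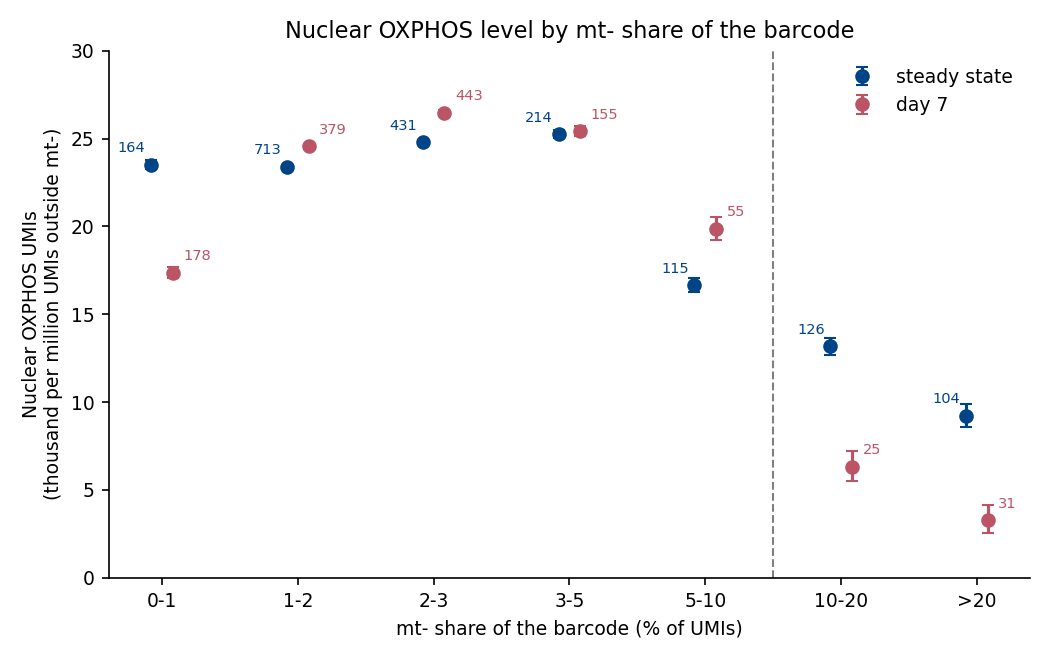
Nuclear OXPHOS UMIs per 1000000 UMIs outside mt- genes (vertical) in bands of mt- share (horizontal), for all barcodes with at least 500 UMIs and 200 genes, with 95% exact Poisson intervals. Numbers beside points are barcodes, and the dashed line is the 10% limit used elsewhere. Both libraries lie between 23406 and 26467 from 1 to 5% mt- and lower beyond 5%.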

How the data were processed

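The values were whole-number UMI counts per gene and antibody in each barcode, as deposited. The submitters' processing notes name Cell Ranger 6.1.2, the build mm10 and Seurat 4.4.0, whose role they do not give. How reads shared with pseudogene copies of members were counted is not given in the sources used here. A barcode was kept with 500 or more RNA UMIs, 200 or more genes and no more than 10% mt- UMIs. Scrublet (scanpy 1.11.5, per library) then removed 7 of 1637 steady-state and 10 of 1210 day 7 barcodes. Some mt- genes overlap (mt-Atp8 with mt-Atp6, mt-Nd4l with mt-Nd4).

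UMIs were summed per gate and library and scaled to 1000000, and ratios have conditional exact Poisson intervals (95%, scipy 1.17.1). TMM factors came from edgeR 4.0.16. The ratio step was tested on simulated counts. Gates needed from 2 to 4 of their markers at set UMI limits, and cells passing several other gates were set aside. Gate thresholds, the granule-first order, the both-gate class and the osteoclast-marker gate were set after seeing the data, and members and lists were chosen with earlier results of these data known. Named members were the 6 highest and 6 lowest per comparison by the interval bound nearest to 0. Beside them stood isoforms, mt- genes and a list of subunits from all complexes. Members named in a comparison where this rule did not choose them, such as Ndufa10, Sdhaf4 and Sdhc, are there because a count or a motif held them, and were chosen after their values were seen.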

Additional observations from a re-analysis of the deposited data

Results flagged for a closer look

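Summed nuclear OXPHOS transcripts went in opposite directions between the libraries in different gates. The log2 ratio, day 7 over steady state, was -0.12 in the macrophage gate and 0.16 in the classical monocyte gate, 0.23 in cells that passed both monocyte gates and 0.27 in the Ly6C-low monocyte gate. Over 10 alternatives the macrophage ratio ran from -0.28 to -0.04 and the classical ratio from 0.04 to 0.17. Each group is 1 library, so the difference between these gates was not tested. Macrophages were also shallower at day 7, with medians of 7127 UMIs against 10121 at steady state. The part of depth was not tested.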

How the results depend on the processing

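No paired analysis was possible because each group has 1 library. The count of members past 1.5-fold over all cells, 9, was 15 without a CPM minimum beyond 1 UMI in each group. It was 5 with a minimum of 50 CPM. It was 0 with equal shares of the macrophage gate, the monocyte classes and the cells with no gate. The all-cell sum, 0.06 on the log2 scale, was 0.16 with TMM, 0.08 with median-of-ratios scaling and 0.13 with equal weight per cell. The cycling ratio of the granule gates, 0.90, was 0.82 with a 20% mt- limit, 0.82 with no limit, 0.51 with equal weight per cell, 0.79 with doublets kept and 0.53 in the late granule gate alone (chosen after seeing the data). The granule protease over classical ratio reversed from -0.13 to 0.09 with TMM and 0.12 with median-of-ratios. Why these values moved was not tested. Over 10 alternatives, 3 of 4 gates were higher at day 7 in nuclear sums in each. Rare isoforms rest on few UMIs, as their intervals show.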
